A study of Mus musculus with 2 samples.

Results

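Both libraries held a small set of barcodes in which 3000 or more genes were detected and which the deposited cell annotation left without a class. These barcodes were 114 of the 3458 barcodes of the diabetic library and 73 of the 4215 barcodes of the control library, or 187 of 7673 in all. They were chosen from measured values: no deposited class, at least 3000 genes with a count, at most 50% of counts from haemoglobin genes (Hba- and Hbb-) and at most 10% from mitochondrial genes (mt-). The haemoglobin and mitochondrial limits removed none of them, so the number of genes and the missing class alone fixed the set. The diabetic library came from the aortae of male Apoe -/- mice on the C57BL/6 strain, aged 17 weeks, which had received streptozotocin at 55 mg/kg a day on 5 days from 6 weeks of age and were then followed for 10 weeks. The control library came from male Apoe -/- mice of the same strain and age that had received citrate vehicle. Mice without apolipoprotein E clear cholesterol-rich lipoproteins poorly and develop atherosclerosis, and streptozotocin destroys the insulin-producing beta cells, so both groups carry the atherosclerosis-prone genotype and only the first was made diabetic. The series asks about the transcription factor complex AP-1 in atherosclerosis under diabetes. Cells of 4 mice a group were pooled before sorting of live cells and sequenced as 1 library, so there is no replicate, no difference between the groups was tested, and each interval below is a 95% interval that covers counting error only.

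In an atherosclerotic aorta, smooth muscle cells of the media hold the contractile genes, fibroblasts of the adventitia make collagen and proteoglycans, and macrophages and monocyte-derived cells take up lipoprotein and debris. Macrophages express complement C1q, lysozyme and Fc receptor signalling chains, whereas T cells express the CD3 chains and the constant segments of the T cell receptor (Trbc1, Trbc2). A single cell does not normally express both sets strongly. In droplet sequencing, a barcode with many genes can be a large or active cell, a dividing cell, or more than 1 cell caught in the same droplet, and a barcode with genes of more than 1 lineage is therefore described here as a mixed barcode and not as a cell type.

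Counts are unique molecular identifiers (UMIs), each standing for 1 captured RNA molecule. The members had 9858 to 32854 UMIs in the diabetic library (median 14555) and 10082 to 25592 in the control library (median 15280). The annotated cells had medians of 4477.5 UMIs and 1650 genes in the diabetic library and 3760 UMIs and 1463 genes in the control library. The members were 3.30% of the barcodes but 10.5% of the UMIs of the diabetic library, and 1.73% of the barcodes but 7.76% of the UMIs of the control library. The median mitochondrial share of members was 3.13% in the diabetic and 2.52% in the control library, and the median share of ribosomal protein genes was 24.98% in the diabetic and 19.8% in the control library. Of the 15 barcode sequences that occur in both libraries, 1 belonged to a diabetic member and 0 to a control member.

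No barcode with 3000 or more genes had a deposited class in either library, while barcodes without a class also occurred at lower gene numbers. The annotated cell with the most genes had 2990 in the diabetic and 2998 in the control library, and the member with the fewest had 3008 in the diabetic and 3002 in the control library. Members with fewer than 3200 genes numbered 31 of 114 in the diabetic and 23 of 73 in the control library. All 58 diabetic and all 36 control barcodes with at least 2800 but fewer than 3000 genes had a class.

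The first question was which cell types these barcodes most resemble. Each member was given the deposited class whose mean profile it correlated with best over 1000 genes, and the 13 classes were joined into 6 lineages. The same rule returned the deposited lineage for 98.5% of the annotated cells (5503 of 5584) and the deposited class for 89.0%. These cells also made the profiles and chose the genes, so these shares are no independent check. They do not measure how well the rule assigns members, which had more genes than any annotated cell. By this rule most members of both libraries were nearest to myeloid cells, with 67 of 114 diabetic members (58.8%, 49.2 to 67.9) and 55 of 73 control members (75.3%, 63.9 to 84.7). Smooth muscle came second, with 32 diabetic members (28.1%, 20.1 to 37.3) and 9 control members (12.3%, 5.80 to 22.1). The remaining members were nearest to T and NK cells (9 diabetic and 4 control), fibroblasts (5 diabetic and 4 control) and endothelium (1 diabetic and 1 control). The order depended on the rule and on the mixed barcodes described below. With each member given the lineage of its highest marker sum instead, 47 of 114 diabetic (41.2%) and 48 of 73 control members (65.8%) were myeloid, 27 diabetic and 10 control members were T and NK, and 31 diabetic and 8 control members were smooth muscle, so the myeloid share of diabetic members was below 50% and T and NK came second among control members. By the lineage of the 15 annotated cells nearest to each member, 3 diabetic and 3 control members were T and NK. With each barcode thinned to 3000 UMIs first, 13 diabetic and 5 control members were, so the number of T and NK members depended strongly on the rule. Among members that were not mixed, 35 of 82 diabetic (42.7%) and 25 of 41 control ones (60.98%) were nearest to myeloid cells. No member was nearest to B cells, which allows a share of up to 2.63% in the diabetic and 4.11% in the control library.

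**Figure D1:**
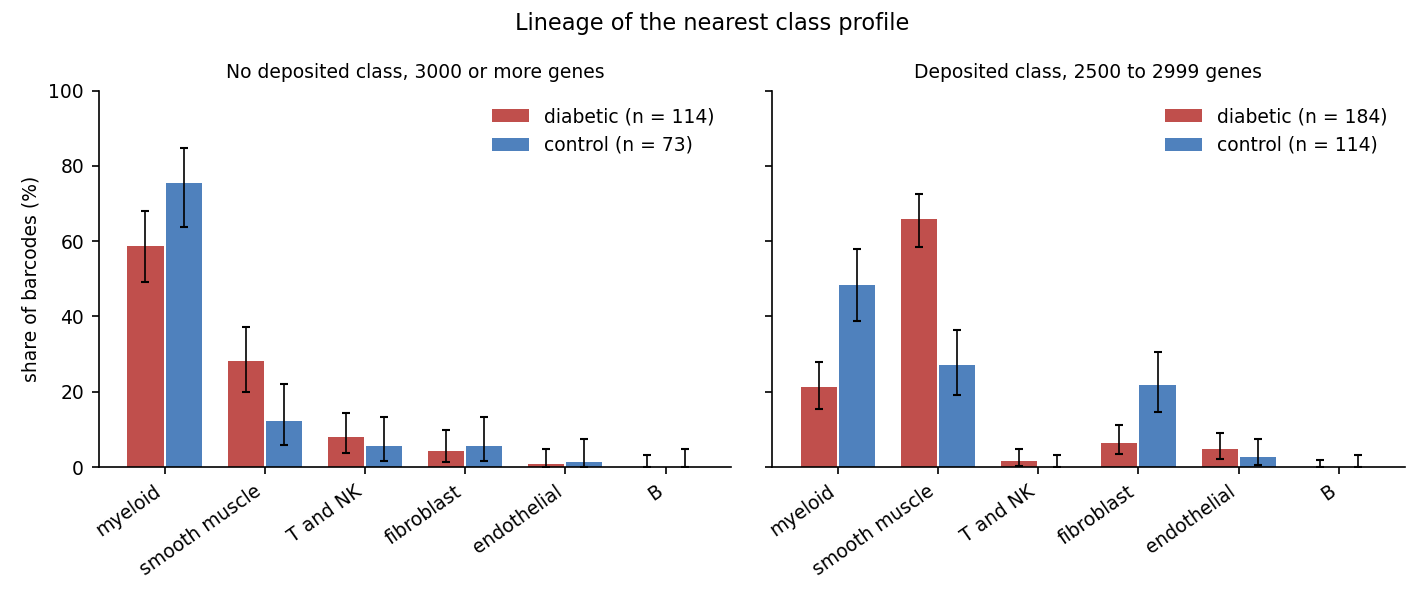
Share of barcodes nearest to each lineage (percent, bars; 95% exact binomial intervals as lines, counting error only), with the diabetic library left of the control library. Myeloid members were 58.8% of the diabetic and 75.3% of the control members, and smooth muscle members 28.1% of the diabetic and 12.3% of the control members.

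The smooth muscle share of members was 15.7 percentage points higher in the diabetic library (3.70 to 26.3), and the myeloid share was lower, with a difference of -16.6 points (-29.0 to -2.61). The T and NK share differed by 2.42 points, with an interval from -6.19 to 9.66 that spans 0. By the 15 nearest annotated cells it was 2.63% of diabetic and 4.11% of control members, so its direction depended on the rule. The smooth muscle and myeloid shares of the annotated cells moved to the same side as those of the members. Smooth muscle was 40.2% of the diabetic and 20.6% of the control annotated cells, and myeloid cells were 11.7% of the diabetic and 18.99% of the control annotated cells. Among annotated cells with 2500 genes or more, the most deeply detected classified cells, smooth muscle was 121 of 184 (65.8%) in the diabetic and 31 of 114 (27.2%) in the control library. Fibroblasts were a smaller share of members, at 4.39% of diabetic and 5.48% of control members, than of annotated cells, at 33.5% of the diabetic and 46.1% of the control ones.

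These differences in make-up were not the same at every gene number and mitochondrial level. With a minimum of 3500 genes, 52 diabetic and 32 control members were left, of which 6 diabetic and 3 control ones were nearest to smooth muscle, and the smooth muscle difference was 2.16 points (-13.9 to 15.1) and the myeloid difference 0.721 points (-16.1 to 19.8). All members with more than 5% mitochondrial UMIs were nearest to smooth muscle, 17 of 32 in the diabetic and 4 of 9 in the control library. With a limit of 5%, the smooth muscle difference was 8.22 points (-2.21 to 17.7) and the myeloid difference -10.6 points (-23.1 to 3.104).

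Set against the members and annotated cells of a lineage together, with other unclassified barcodes left out, members took the highest share in myeloid cells in the diabetic library, and in the control library the myeloid and the T and NK shares were close. They were 67 of 362 such myeloid barcodes (18.5%, 14.6 to 22.9) in the diabetic and 55 of 636 (8.65%, 6.58 to 11.1) in the control library. The same share was 7.5% in the diabetic and 8.16% in the control library for T and NK cells, 3.06% in the diabetic and 1.41% in the control library for smooth muscle, and below 1% in both for fibroblasts. By class, the nearest match was Mac for 44 diabetic and 46 control members, the class of monocyte-derived dendritic cells (MoDC) for 19 diabetic and 1 control member, and Foam cells for 2 diabetic and 8 control members. The annotated cells of the MoDC class numbered 30 of 2524 in the diabetic and 27 of 3060 in the control library. Of the smooth muscle members, 31 of 32 diabetic and 7 of 9 control barcodes were nearest to VSMCs-2.

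Marker genes were then summed for each lineage. Marker sums are given per 3000 UMIs, after each barcode was thinned at random to that number. The 10 smooth muscle markers summed to 10 to 235 UMIs (median 137) in diabetic and to 9 to 180 (median 63) in control smooth muscle members. A barcode was taken to carry a lineage when its marker sum reached the 10th percentile of annotated cells of that lineage (84 UMIs for smooth muscle) and at least 3 of its markers had a UMI, and 27 of 32 diabetic but 4 of 9 control smooth muscle members did so. Acta2, smooth muscle actin, stood at 24486 CPM (UMIs scaled to a total of 1000000 UMIs of the same barcodes) in diabetic and 16761 CPM in control smooth muscle members, against 27963 and 29076 CPM in the annotated smooth muscle cells of the diabetic and the control library. Myh11, the smooth muscle myosin heavy chain, stood at 2427 CPM in diabetic and 1188 CPM in control members. Control smooth muscle members, 9 barcodes, therefore held less Acta2 and Myh11 than diabetic ones, and 5 of the 9 carried no lineage by the threshold. Some smooth muscle members also held fibroblast RNA. Dcn, the proteoglycan decorin, had a UMI in 8 of 32 diabetic and 6 of 9 control smooth muscle members at full depth. It stood at 1578 CPM in diabetic and 2218 CPM in control members, with 35.99% of the diabetic and 63.8% of the control UMIs in 1 barcode. In annotated smooth muscle cells it stood at 115 CPM in the diabetic and 357 CPM in the control library. Of the fibroblast markers, only Mfap5 was lower in members than in annotated smooth muscle cells. It stood at 353 against 488 CPM in the diabetic and 440 against 490 CPM in the control library. Of the other lineages, 6 of 67 diabetic and 1 of 55 control myeloid members, 3 of 5 diabetic and 0 of 4 control fibroblast members, and 0 of 1 diabetic and 1 of 1 control endothelial members carried no lineage.

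The myeloid members had all 12 myeloid markers, each at a lower level than in the annotated myeloid cells of the same library. Lyz2, lysozyme, stood at 7435 CPM in diabetic and 11980 CPM in control myeloid members, against 12391 and 17605 CPM in annotated myeloid cells of the diabetic and the control library. C1qa, a chain of complement C1q, stood at 1994 CPM in diabetic and 4485 CPM in control members, against 3240 and 6846 CPM in the annotated cells. The sum of the 12 markers ran from 25 to 161 UMIs (median 54) in diabetic and from 28 to 205 (median 99) in control myeloid members, so the ranges overlapped and the diabetic median was lower. Tyrobp, an adaptor chain of activating receptors, was alike in both, at 2202 CPM in diabetic and 2245 CPM in control members.

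Most myeloid members also held RNA of T and NK cells. At full depth, Trbc2 had a UMI in 61 of 67 diabetic and 39 of 55 control myeloid members, and its level was 882 CPM in diabetic and 868 CPM in control members, against 476 and 252 CPM in the annotated myeloid cells of the diabetic and the control library. Cd3e, a CD3 chain, stood at 143 CPM in diabetic and 130 CPM in control myeloid members, Cd3d at 183 CPM in diabetic and 135 CPM in control, and Lck, the T cell receptor kinase, at 169 CPM in diabetic and 147 CPM in control. Genes of cytotoxic lymphocytes were carried by fewer barcodes: Gzma, granzyme A, had a UMI in 21 of 67 diabetic and 17 of 55 control myeloid members, at 136 CPM in diabetic and 260 CPM in control members. The 12 T and NK markers together gave at least 1 UMI of 3000 in 63 of 67 diabetic and 39 of 55 control myeloid members.

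Smooth muscle cells do not normally express T cell receptor RNA, and the level of the list in them is given for comparison; free RNA in the suspension was not measured. In annotated smooth muscle cells the T and NK markers had a UMI of 3000 in 10 of 910 diabetic and 19 of 529 control cells, and they summed to 3.17 CPM in the diabetic and 8.18 CPM in the control library. In myeloid members they summed to 2472 CPM in the diabetic and 2286 CPM in the control library. Among smooth muscle members, 3 of 32 diabetic and 1 of 9 control barcodes had a UMI of the list, with a median of 11887 UMIs a barcode in diabetic and 13866 in control members, against 16821 in diabetic and 15280 in control myeloid members. Over all UMIs the list summed to 202 CPM in diabetic and 7.87 CPM in control smooth muscle members, lower than in myeloid members of the same library but, in the diabetic library, above the annotated smooth muscle cells. Of the 51 Trbc2 UMIs in diabetic smooth muscle members, 33 lay in 1 barcode. The part of free RNA in these levels was not tested.

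A barcode that carried 2 or more lineages was called mixed. By this rule 32 of 114 diabetic members (28.1%, 20.1 to 37.3) and 32 of 73 control members (43.8%, 32.2 to 55.9) were mixed, against 55 of 1754 (3.14%) diabetic and 94 of 1966 (4.78%) control annotated cells that had 3000 UMIs to thin. All 32 diabetic mixed members carried the myeloid together with the T and NK lineage. In the control library 29 mixed members carried these 2 lineages, 1 carried them with fibroblast markers, 1 carried fibroblast and myeloid markers and 1 smooth muscle and fibroblast markers. Among annotated cells with 2500 genes or more, 16 of 184 diabetic (8.70%) and 19 of 114 control cells (16.7%) were mixed. Most mixed barcodes were nearest to myeloid cells, which were a larger share of members than of annotated cells. Among myeloid members, 32 of 67 diabetic (47.8%) and 30 of 55 control barcodes (54.5%) were mixed. Of annotated cells nearest to a myeloid class, 45 of 209 diabetic (21.5%) and 84 of 449 control cells (18.7%) were mixed. Of those with 2500 genes or more, 16 of 38 diabetic (42.1%) and 18 of 55 control cells (32.7%) were.

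**Figure D2:**
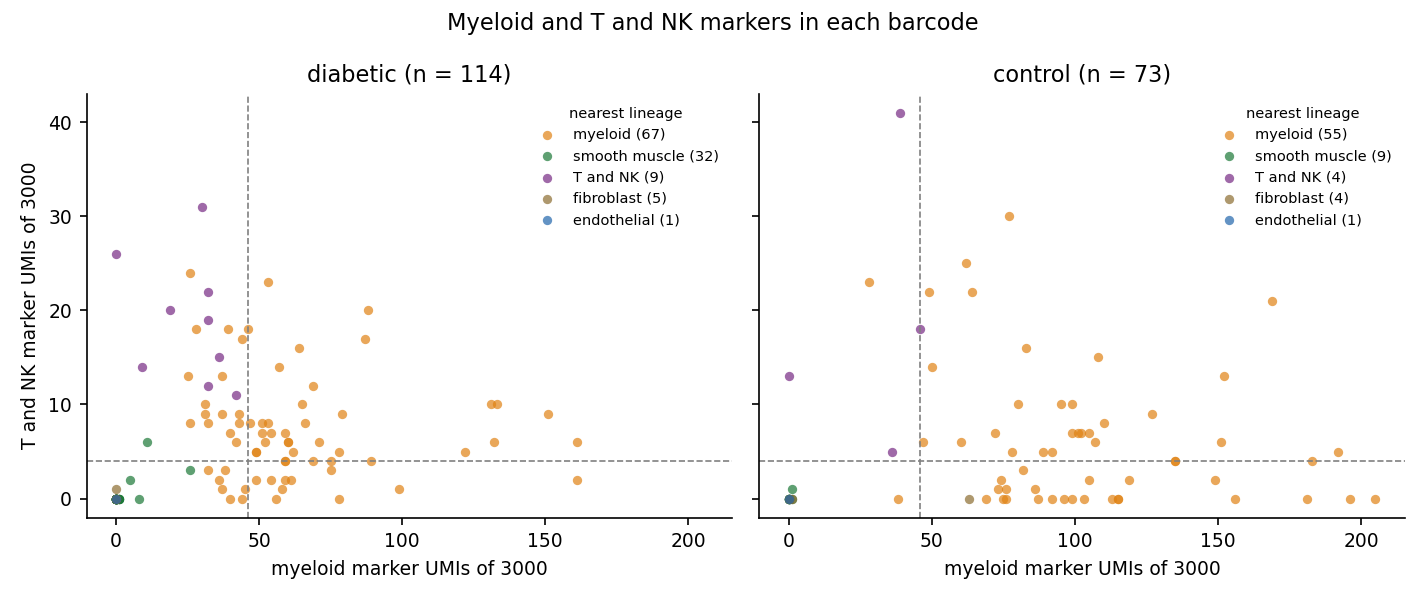
T and NK marker sum against myeloid marker sum of each member (UMIs of 3000 after thinning), diabetic library left and control library right, coloured by nearest lineage, with dashed lines at the thresholds of 4 T and NK and 46 myeloid UMIs. Barcodes above both thresholds are the myeloid plus T and NK mixtures, 32 of 114 diabetic and 30 of 73 control members when the control barcode with fibroblast markers is counted.

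The difference between the libraries in mixed members was -15.8 percentage points (-29.4 to -1.80), and its sign changed with the threshold. With the thresholds lowered to 50%, a setting added after the data were seen, 65 of 114 diabetic members (57.0%) and 38 of 73 control members (52.1%) were mixed, a difference of 4.96 points (-9.41 to 19.2). Of the myeloid members, 15 diabetic and 1 control barcode carried T and NK markers with no second lineage, their myeloid sum being below 46 UMIs. Carriage of T and NK markers, with or without another lineage, was seen in 47 of 67 diabetic and 30 of 55 control myeloid members. By nearest class it was seen in 29 of 44 diabetic and 25 of 46 control Mac members, in 16 of 19 diabetic and 0 of 1 control MoDC members, and in 1 of 2 diabetic and 5 of 8 control Foam cell members. No order of the 2 libraries in mixed identity therefore held over the thresholds tried.

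Mixed and unmixed myeloid members had similar median depth. The mixed ones had a median of 16638 UMIs and the others 16901 in the diabetic library, and the medians were 14835.5 and 16008 UMIs in the control library. The median share of ribosomal protein genes was 26.6% in mixed and 27.8% in other diabetic myeloid members, and 21.1% in mixed and 20.2% in other control ones.

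Carriage of T and NK markers increased with the number of genes among the members and annotated cells that were nearest to a myeloid class and had at least 3000 UMIs. The UMI minimum left out 78 diabetic and 131 control annotated cells nearest to a myeloid class, and other unclassified barcodes were not included. Below 1500 genes it was seen in 5 of 61 diabetic and 5 of 155 control barcodes. From 2000 to below 2500 genes it was seen in 18 of 44 diabetic and 26 of 98 control barcodes, and from 2500 to below 3000 genes in 19 of 38 diabetic and 18 of 55 control barcodes. Among members it was seen in 16 of 26 diabetic and 15 of 30 control barcodes with fewer than 3500 genes, and in 31 of 41 diabetic (75.6%, 59.7 to 87.6) and 15 of 25 control barcodes (60.0%, 38.7 to 78.9) with more. Each barcode was thinned to the same 3000 UMIs first, and the share rose with gene number in both libraries. The annotated smooth muscle cells carried T and NK markers in 0 of 910 diabetic and 0 of 529 control cells. Doublets were neither called nor removed here, and their part in the mixed barcodes was not tested.

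**Figure D3:**
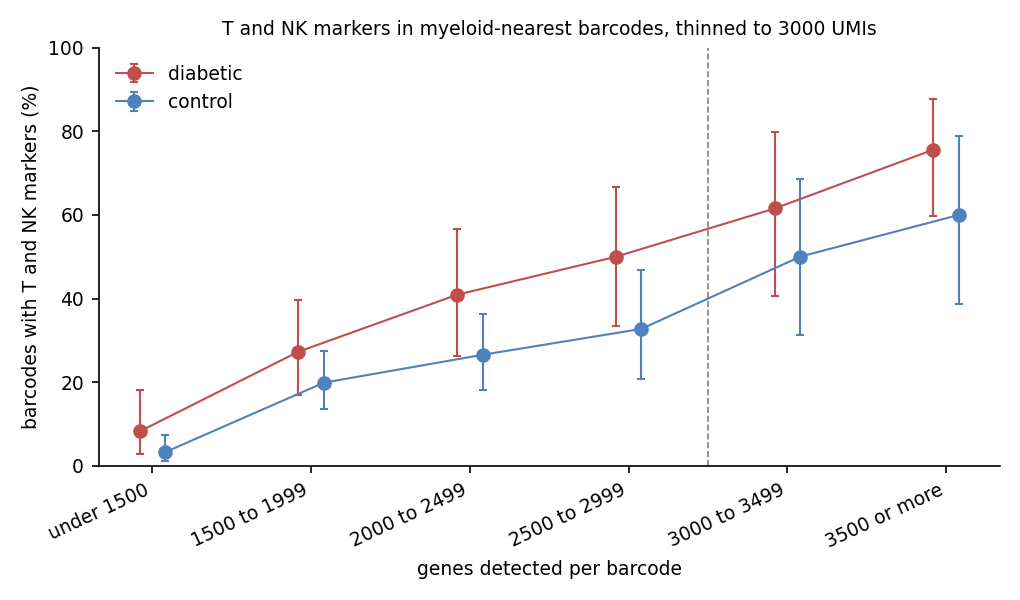
Share of myeloid-nearest members and annotated cells with at least 3000 UMIs that carry T and NK markers (percent, 95% exact binomial intervals) by number of genes detected, diabetic library left of control library in each bin and members right of the dashed line. The share was 8.20% in diabetic and 3.23% in control barcodes below 1500 genes, and 75.6% in diabetic and 60.0% in control barcodes with 3500 genes or more.

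The T- and NK-nearest members, 9 diabetic and 4 control barcodes, mostly held myeloid RNA as well, though 1 of them passed the myeloid threshold. Their T and NK markers summed to 11 to 31 UMIs (median 19) in diabetic and 5 to 41 (median 15.5) in control members. Their myeloid markers summed to 0 to 42 UMIs (median 32) in diabetic and 0 to 46 (median 37.5) in control members, of which 0 of 9 diabetic and 1 of 4 control barcodes reached the threshold of 46. Lyz2 had a UMI in 8 of 9 diabetic and 3 of 4 control T- and NK-nearest members, at 2686 CPM in diabetic and 2847 CPM in control, and C1qa stood at 932 CPM in diabetic and 1743 CPM in control, against 219 and 792 CPM in annotated T and NK cells of the diabetic and the control library. Thus 1 diabetic and 1 control barcode had no myeloid marker UMI among 3000, and all others held both sets. Trbc1 and Trbc2, the alternative constant segments of the T cell receptor beta chain, were unlike between the libraries: Trbc1 stood at 1471 CPM in diabetic and 50.2 CPM in control members, and Trbc2 at 2774 CPM in diabetic and 3537 CPM in control.

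Genes expressed in developing lymphocytes, not all of them restricted to such cells, were found in these barcodes. Dntt, the terminal transferase that adds bases at receptor gene joints and is normally restricted to immature T and B cells, had a UMI in 9 of 9 diabetic and 4 of 4 control T- and NK-nearest members, at 409 CPM in diabetic and 652 CPM in control. Cd8b1, the CD8 beta chain, stood at 218 CPM in diabetic and 263 CPM in control members, and Myb, a transcription factor of blood progenitors, at 338 CPM in diabetic and 201 CPM in control. The same genes were seen in myeloid members, where Dntt stood at 51.6 CPM in diabetic and 78.4 CPM in control, and Rag1, a recombinase of receptor gene assembly, at 60.1 CPM in diabetic and 27.6 CPM in control. The list of 8 thymocyte genes summed to 817 CPM in diabetic and 1041 CPM in control T- and NK-nearest members, to 304 CPM in diabetic and 253 CPM in control myeloid members, and to 1.67 and 2.04 CPM in annotated smooth muscle cells of the diabetic and the control library. It was also present in the annotated T and NK cells, at 1060 CPM in the diabetic and 808 CPM in the control library, so it was not particular to the members. Within myeloid members, the list stood at 374 CPM in mixed and 245 CPM in other diabetic barcodes, and at 352 CPM in mixed and 135 CPM in other control barcodes.

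Markers of other cell types were found in some members. Neutrophil markers had a UMI of 3000 in 16 of 67 diabetic and 12 of 55 control myeloid members, with up to 57 UMIs in a diabetic and 76 in a control barcode, and S100a8, a neutrophil and monocyte calcium-binding protein, had a UMI in 17 diabetic and 8 control myeloid members at full depth. Antibody RNA was concentrated in single barcodes: of 7098 UMIs of Igkc, the kappa light chain, in diabetic myeloid members, 4232 lay in 1 barcode, and of 1774 UMIs of Igha, the IgA heavy chain, 1770 lay in 1 barcode. Control myeloid members held 489 UMIs of Igkc and 149 of Igha. The diabetic member nearest to endothelium carried 59 UMIs of smooth muscle, 23 of endothelial and 32 of chondrocyte markers among 3000, and the control one 14 of smooth muscle, 19 of fibroblast and 12 of endothelial markers. Mast cell and erythroid markers reached at most 1 UMI of 3000 in myeloid members of either library.

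The next question was how many members were dividing. Cells in mitosis and late interphase express Mki67, Top2a, Birc5, Ube2c and other genes of chromosome condensation and segregation, and a barcode was called cycling when at least 3 of 22 such proliferation genes had a UMI among 3000. This was met by 14 of 114 diabetic members (12.3%, 6.88 to 19.7) and 15 of 73 control members (20.5%, 11.98 to 31.6), a difference of -8.27 points (-19.9 to 2.32) whose interval spans 0. Without thinning, 35 diabetic and 28 control members met it. The rule was met by 17 of 1754 diabetic (0.969%) and 27 of 1966 control annotated cells (1.37%), and by 7 of 184 diabetic (3.80%) and 11 of 114 control annotated cells (9.65%) with 2500 genes or more.

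Cycling barcodes were found in 2 lineages with 1 exception. Among T- and NK-nearest members, 7 of 9 diabetic and 4 of 4 control barcodes were cycling. Annotated T and NK cells were cycling in 7 of 28 diabetic and 1 of 13 control cells. With 2500 genes or more, 2 of 3 diabetic annotated T and NK cells were cycling, so cycling was not particular to the members. Among myeloid members, 7 of 67 diabetic (10.4%, 4.30 to 20.3) and 10 of 55 control barcodes (18.2%, 9.08 to 30.9) were cycling. Annotated myeloid cells with 2500 genes or more had like shares, 4 of 39 in the diabetic and 9 of 55 in the control library. Among smooth muscle members 0 of 32 diabetic (up to 9.38% allowed) and 1 of 9 control barcodes were cycling, and the control one held 15 of the 22 genes. Of mixed members, 4 of 32 diabetic and 9 of 32 control barcodes were cycling.

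**Figure D4:**
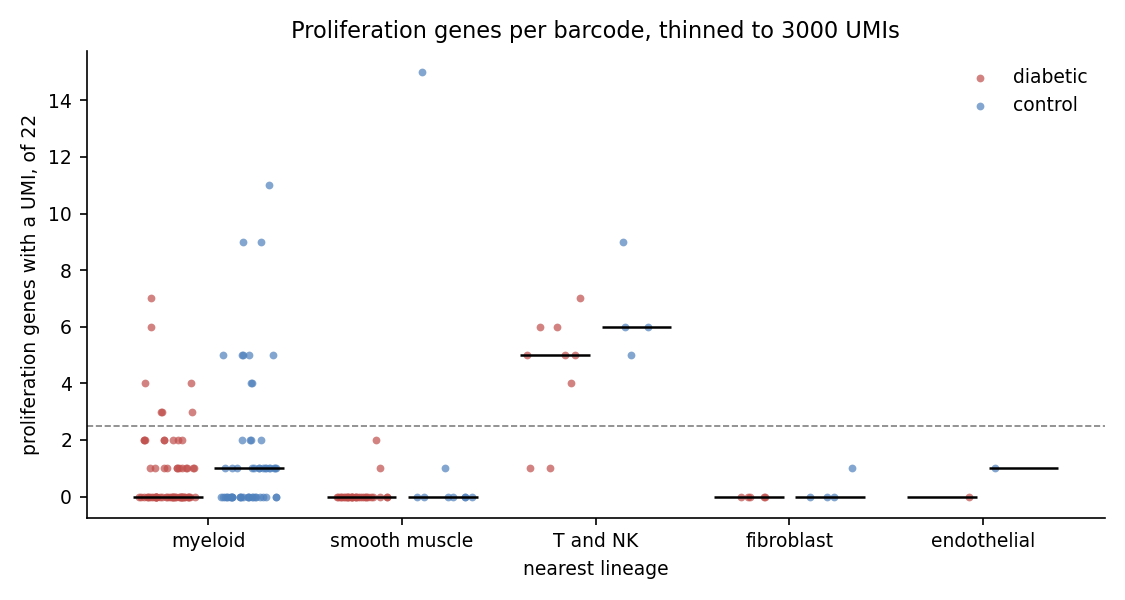
Number of the 22 proliferation genes with a UMI among 3000 in each member, by nearest lineage, diabetic library left of control library; horizontal bars are medians, and barcodes above the dashed line have at least 3 genes. T- and NK-nearest members reach up to 7 genes in the diabetic and 9 in the control library, and 1 control smooth muscle member reaches 15.

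Proliferation genes had lower CPM in diabetic members. The list summed to 486 CPM in diabetic and 961 CPM in control members, and to 2125 CPM in diabetic and 3625 CPM in control T- and NK-nearest members. Top2a, the topoisomerase that untangles replicated DNA, stood at 65.6 CPM in diabetic and 113 CPM in control members, Birc5, survivin, at 63.4 CPM in diabetic and 125 CPM in control, and Ube2c, a ubiquitin-conjugating enzyme of mitotic exit, at 51.5 CPM in diabetic and 124 CPM in control. Mki67, the Ki-67 protein, was closer, at 32.0 CPM in diabetic and 36.2 CPM in control. Genes of DNA replication were carried beyond the cycling barcodes: Pcna, the replication clamp, had a UMI in 14 of 14 cycling and 53 of 100 other diabetic members, and in 14 of 15 cycling and 30 of 58 other control members at full depth. Pclaf, a PCNA-binding protein, stood at 751 CPM in cycling and 53.7 CPM in other diabetic members, and at 712 CPM in cycling and 57.5 CPM in other control members.

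Members were then compared with annotated cells of the same lineage and library, as a description, since the number of genes chose them. Among myeloid cells, 67 of 6537 genes (1.02%) were at least 2-fold higher in members in both libraries and 30 (0.459%) at least 2-fold lower. Of 22 DNA replication genes, 17 had 30 UMIs in each library, and 6 of these were at least 2-fold higher in both and 0 lower. The median log2 ratio of the 22 was 0.95 in the diabetic and 1.34 in the control library, where all 9390 genes with at least 10 UMIs in each library had medians of 0.15 and 0.19. Examples were Mcm5, a subunit of the replicative helicase, at 36.4 CPM in members and 10.7 CPM in annotated cells of the diabetic library and at 45.3 and 13.9 CPM in those of the control library, and Uhrf1, which helps copy DNA methylation, at 21.99 CPM in members and 5.04 CPM in annotated cells of the diabetic library and at 25.4 and 3.9 CPM in those of the control library. By the rule for named genes, Phgdh, the first enzyme of serine synthesis, was 4.39-fold higher in members in the diabetic and 3.88-fold in the control library, Pclaf 2.52-fold and 5.90-fold, and Cenpw, a centromere protein, 4.15-fold and 3.01-fold. Thy1, a surface protein of mouse T cells, was 2.25-fold higher in the diabetic and 3.37-fold in the control library, and Ly6d, a lymphoid surface protein, 3.23-fold and 2.33-fold. T and NK markers were higher in these members too, as given above, and their part in these ratios was not tested. Without mixed members, which leaves fewer barcodes, 35 genes were at least 2-fold higher in both, and against annotated cells with 2500 genes or more 14 were. Among smooth muscle cells, where the control library had only 9 members, 84 of 7218 genes (1.16%) were at least 2-fold higher in both libraries and 109 (1.51%) lower. The only gene named there by the rule was Capg, an actin-capping protein of macrophages and other motile cells, 2.22-fold higher in the diabetic and 3.53-fold in the control library. The T and NK and fibroblast lineages had under 10 members in each library. In both libraries, 26 of 918 genes (2.83%) were at least 2-fold higher and 67 (7.3%) lower among T and NK cells. Among fibroblasts, 181 of 7382 (2.45%) were higher and 1002 (13.6%) lower.

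The last comparison set diabetic against control within the myeloid members, the only lineage with at least 10 members in both libraries. Of 6108 genes with at least 30 UMIs in both libraries together, 224 (3.67%) were at least 2-fold higher in diabetic and 228 (3.73%) at least 2-fold lower. Of the 224, 215 had 30 UMIs in annotated myeloid cells too, where 173 lay on the same side and 46 were at least 2-fold higher. Of the 228, 220 had 30 UMIs there, 173 lay on the same side and 35 were at least 2-fold lower.

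Of the genes higher in diabetic myeloid members, the rule for named genes gave 5. Klrb1b, a lectin receptor of natural killer and dendritic cells, stood at 41.4 CPM in diabetic and 4.42 CPM in control members, a ratio of 9.39 (3.44 to 35.8) that rests on 4 control UMIs. Gcnt2, an enzyme that branches sugar chains, had a ratio of 9.002 (3.29 to 34.4), also on 4 control UMIs. Ifitm1, an interferon-induced membrane protein, stood at 254 CPM in diabetic and 60.7 CPM in control, a ratio of 4.18 (3.13 to 5.68), and at 285 and 96.4 CPM in annotated myeloid cells of the diabetic and the control library. Hspa1b, an inducible heat shock protein, had a ratio of 3.45 (2.11 to 5.91), although 1 of the 12 heat shock genes with at least 30 UMIs was past 2-fold and the list of 13 had a median log2 ratio of -0.07 with a ratio above 1 in 4. Tbc1d4, a regulator of glucose transporter traffic, had a ratio of 3.496 (2.02 to 6.44). All 5 lay on the same side in the annotated myeloid cells.

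The rule likewise gave 5 genes lower in diabetic myeloid members. Cd14, the co-receptor for bacterial lipopolysaccharide, stood at 399 CPM in diabetic and 1056 CPM in control members, a ratio of 0.378 (0.338 to 0.422), and at 862 and 2122 CPM in annotated myeloid cells of the diabetic and the control library. Cd81, a membrane tetraspanin, had a ratio of 0.364 (0.324 to 0.409) in members and 0.408 in annotated cells. Gsn, the actin-severing protein gelsolin, stood at 150 CPM in diabetic and 475 CPM in control, a ratio of 0.315 (0.263 to 0.377), against 0.796 in annotated cells. Rhoc, a small GTPase of the cytoskeleton, had a ratio of 0.327 (0.251 to 0.422), against 0.553 in annotated cells. Aqp1, a water channel, had a ratio of 0.302 (0.205 to 0.437), with 26.8% of its diabetic UMIs in 1 barcode, and 0.184 without mixed members. It had a UMI in 15 of 67 diabetic and 15 of 55 control members. In annotated myeloid cells its ratio was 0.863, with an interval from 0.645 to 1.15 that spans 1. Diabetic members also held more MoDC-nearest barcodes, 19 against 1 in control, and without them 197 genes were at least 2-fold higher and 181 at least 2-fold lower.

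**Figure D5:**
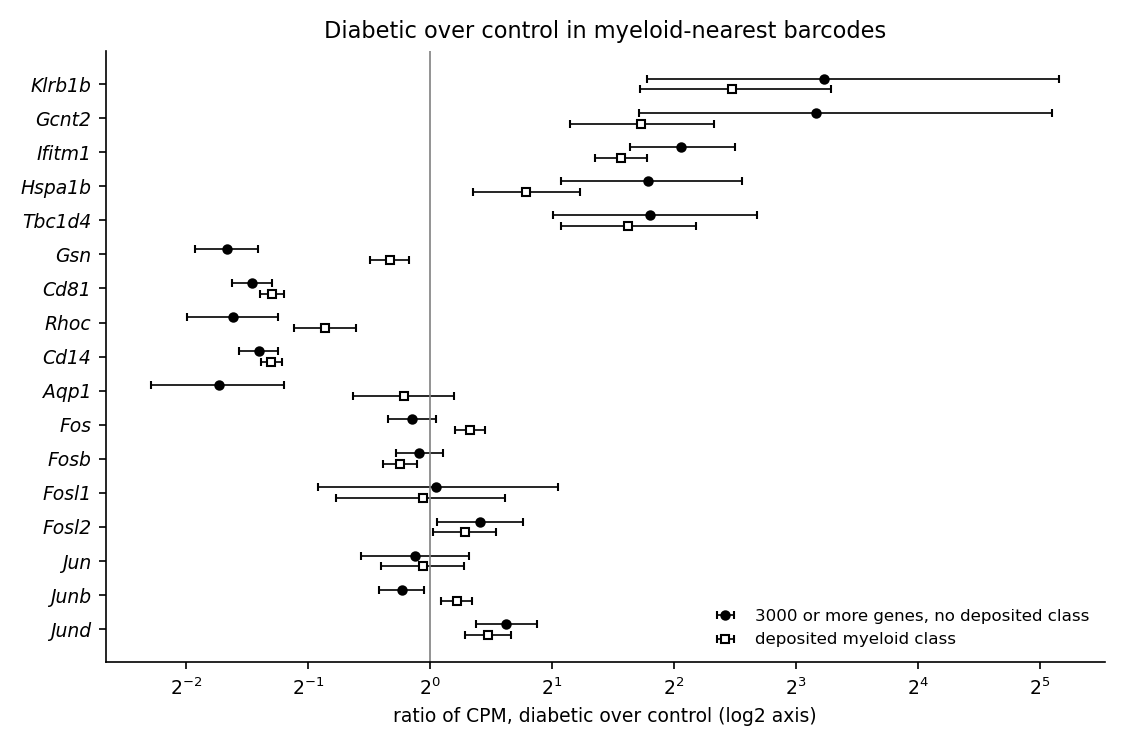
Diabetic over control CPM ratio of named genes and AP-1 subunits in myeloid members and in annotated myeloid cells (log axis; lines are 95% intervals from counting error only; 1 library a group). Ifitm1 lies at 4.18 and Cd14 at 0.378 in members, and the 7 AP-1 subunits lie between 0.85 and 1.54.

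AP-1 is formed by Fos and Jun proteins, whose genes are switched on within minutes of many stimuli. None of the 7 subunit genes reached a 2-fold ratio in myeloid members. Jund, a constitutively expressed subunit, stood at 332 CPM in diabetic and 215 CPM in control, a ratio of 1.54 (1.30 to 1.84), and Fosl2 had a ratio of 1.33 (1.04 to 1.70). Junb had a ratio of 0.85 (0.75 to 0.97) in members and 1.17 in annotated myeloid cells. Fos stood at 384 CPM in diabetic and 425 CPM in control, a ratio of 0.90 (0.79 to 1.04), and was 1.26 in annotated cells. Fosb, Jun and Fosl1 had ratios of 0.94, 0.92 and 1.04. The median log2 ratio of the 7 genes was -0.09, where that of all 9305 genes with at least 10 UMIs was -0.01. Of the 20 other immediate early genes, Nr4a2 and Nr4a3, nuclear receptors induced by many signals, were the only ones past 2-fold, with ratios of 2.38 (1.75 to 3.29) and 2.23 (1.66 to 3.01).

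The lists that stood furthest from the median of all genes were those of dividing cells and of matrix. Of 10 proliferation genes with at least 30 UMIs in myeloid members, 6 were at least 2-fold lower in diabetic and 0 higher, with a list median of -1.003 on the log2 scale, or -0.62 without mixed members. Birc5 stood at 39.8 CPM in diabetic and 107 CPM in control, a ratio of 0.371 (0.256 to 0.531), and Ube2c at 27.9 CPM in diabetic and 103 CPM in control, 0.272 (0.177 to 0.408). Of the UMIs of each of the 10 genes, 10.1% to 32.1% (median 20.5%) lay in 1 barcode of the library of higher CPM. The intervals do not cover this spread between barcodes. In annotated myeloid cells the same list had a median of 0.42, on the other side. The DNA replication list had a median of -0.44, and of 0.12 without mixed members, with Rrm2, a subunit of ribonucleotide reductase, at 0.355 (0.226 to 0.548).

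For part of the matrix genes, most of the UMIs in myeloid members lay in 1 barcode. Of 8 collagen and elastic fibre genes with at least 30 UMIs, 6 were at least 2-fold lower in diabetic and 0 higher, among them Eln, elastin, with a ratio of 0.331 (0.212 to 0.508) and 62.2% of its control UMIs in 1 barcode, and Fbln5, a protein of elastic fibre assembly, at 7.61 CPM in diabetic and 53.0 CPM in control with 83.3% in 1 barcode. In the library of higher CPM, 1 barcode held over 50% of the UMIs of 4 of the 8 genes, with a range from 28.75% to 83.3%. Mgp, the matrix Gla protein, stood at 189 CPM in diabetic and 733 CPM in control, and 1 barcode held 67.9% of the control UMIs. Among contractile genes, Cnn1, calponin, and Tagln, transgelin, had ratios of 3.83 and 2.63, with 72.0% and 69.1% of their diabetic UMIs in 1 barcode. For the genes given here with most UMIs in 1 barcode, the ratio does not describe the myeloid members in general.

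Among genes of macrophage state, Fabp5, a fatty acid binding protein, stood at 643 CPM in diabetic and 223 CPM in control, a ratio of 2.88 (2.47 to 3.38), and 4.01 in annotated cells. Lower were Cd9, a tetraspanin of lipid-associated macrophages, with a ratio of 0.405 (0.339 to 0.483), Lyve1, a hyaluronan receptor of resident macrophages, with 0.453 (0.382 to 0.536), and Spp1, osteopontin, with 0.461 (0.390 to 0.545) and 37.8% of its diabetic UMIs in 1 barcode. The list of 15 had a median of -0.60. Of the interferon genes, Ifit1, Rsad2 and Gbp2 were more than 2-fold higher, with ratios of 5.17 (1.80 to 20.3), 2.10 (1.22 to 3.76) and 2.16 (1.06 to 4.76), and the list median was 0.19. The summed list had a ratio of 1.05 (0.99 to 1.12). For the genes of this list, 1 barcode held up to 37.0% of the UMIs in the library of higher CPM. Ccl8, a chemokine for monocytes and T cells, had a ratio of 2.10 (1.81 to 2.45) in members and 2.05 in annotated cells. The chemokine and cytokine list as a whole lay on the other side, with a median of -0.29 in members and -0.61 in annotated myeloid cells. Of its 11 measured genes in members, 2 had a ratio above 1 and 1 was at least 2-fold lower. MHC class II genes had ratios near 1, with a list median of 0.01 on the log2 scale, and none was past 2-fold.

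Over all members, 447 of 7848 genes (5.7%) were at least 2-fold higher in diabetic and 220 (2.8%) at least 2-fold lower, and these ratios carry the make-up described above. Of 17 contractile genes, 14 were at least 2-fold higher in diabetic members, among them Myh11 at 550 CPM in diabetic and 128 CPM in control, a ratio of 4.30 (3.62 to 5.13), and Actg2, smooth muscle gamma actin, with a ratio of 6.25 (4.31 to 9.37). Sost, the Wnt inhibitor sclerostin, had a ratio of 7.46 (4.91 to 11.8), and Tinagl1, a matrix protein, 5.31 (3.33 to 8.92). Genes of macrophages were lower, such as C1qa with a ratio of 0.388 (0.370 to 0.408), Fcna, ficolin A, with 0.319 (0.251 to 0.404), and Ltc4s, leukotriene C4 synthase, with 0.329 (0.270 to 0.401). Zmynd15 had the lowest ratio among the named genes, 0.184 (0.103 to 0.315). The smooth muscle share of members was higher and the myeloid share lower in diabetic in the same counts, so these genes and the shares of cells are not separate results.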

How the data were processed

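Single-cell RNA-seq libraries of mouse aorta (10x Genomics 3' chemistry) were measured as 1 library a group. The authors deposited raw UMI counts per gene and barcode and a table with a class for part of the barcodes; reads were processed with Cell Ranger 3.1.0 on mm10 and with Partek, per the submitters' processing notes. How classes were assigned, the gene annotation release and any doublet removal are not given in the sources used here. No column of other samples was present (0 unused).

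From the deposited counts, members were selected by the rule stated at the start. Members and gene lists were chosen with earlier results of these data known. Class profiles were means of log-normalized annotated cells over 1000 genes, with libraries weighted equally, and members took the class of highest Pearson correlation. For marker and cycling rules each barcode was thinned to 3000 UMIs (seed 1). Ratios are diabetic over control UMI sums scaled to 1000000 UMIs of the same barcodes (CPM), with exact conditional binomial 95% intervals; shares have Clopper-Pearson and differences Newcombe intervals, which cover counting error only. A share of 0 is given the limit of 3 counts. A ratio was called at 2-fold with at least 30 UMIs in both libraries together, and list medians use genes of at least 10. Named genes were, by direction, the 5 with the interval bound furthest from 1, a UMI in at least 20% of the barcodes of the higher library and no barcode with over 20% of its UMIs there, besides markers, AP-1 subunits and up to 4 members a list. No doublet caller was run and no clusters were made. The 19 marker and 18 pathway lists hold symbols as the files give them. Python 3.11.15, numpy 2.4.6, scipy 1.17.1, pandas 2.3.3 and scikit-learn 1.9.0 were used, with edgeR 4.0.16 in R 4.3.3 for trimmed-mean (TMM) scaling only. Of these steps, the ratio with its interval and the rule for mixed barcodes were tested on simulated data.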

Additional observations from a re-analysis of the deposited data

How the results depend on the processing

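With 1 library a group, no replicate could be left out. No paired analysis was possible because each group has 1 library and the labels give no replicate number. Of the values recomputed for the main comparisons, 62 kept their direction and size, 25 moved and 3 reversed, and of those for single genes and lists 142 kept them and 30 moved. The cause of the changes was not tested unless the setting itself shows it. A minimum of 3500 genes left 52 diabetic and 32 control members, turned the myeloid difference to 0.721 points, left a smooth muscle difference of 2.16 points and gave 42.3% mixed diabetic members. Assigning members by the highest relative marker sum gave a T and NK difference of 9.99 points and a myeloid share of 41.2% in diabetic members. The mixed share depended most on the rule: with the 25th percentile it was 1.75% in diabetic and 2.74% in control (difference -0.985 points), without thinning 10.5% and 26.0%, with 4 markers 28.8% in control, and with a non-negative fit of class profiles 57.9% in diabetic members (difference 19.5 points). That fit also called 41 of 184 diabetic and 33 of 114 control annotated cells with 2500 genes or more mixed. With thresholds at 50%, added after seeing the data, it was 57.0% in diabetic members (difference 4.96 points). Cycling without thinning was 30.7% in diabetic and 38.4% in control members, and by at least 3 DNA replication genes, also added, 22.8% in diabetic. With at least 10 UMIs, genes past 2-fold were 676 higher and 661 lower in myeloid members, and 1016 higher and 504 lower in all members. Against annotated cells with 2500 genes or more, members had 14 higher and 4 lower genes in myeloid cells and 13 higher and 0 lower in smooth muscle, and 35 were higher in myeloid cells without mixed members. TMM scaling moved log2 ratios by 0.036 in myeloid members. The number of barcodes limits the lineages with under 10 members, where 1 barcode moves a share most.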
